A study of Bos taurus with 9 samples.

Results

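The sites described here were positions in MDBK cells that carried acetylated H3K27 both before and after butyrate and that entered the H3K9ac peak list after butyrate. They are called gain sites. A gain site was a control H3K27ac peak on a nuclear chromosome that shared at least 1 bp with a butyrate H3K27ac peak and with a butyrate H3K9ac peak, and that shared no base with a control H3K9ac peak. Of 94603 control H3K27ac peaks, 8854 met this rule, which is 9.36% of the list. The 4 lists of H3K27ac and H3K9ac chose the sites, so every value taken from these lists is a description of the choice and not a test of it. The lists of RNA polymerase II (Pol II) and H3K9me3 took no part in the choice.

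MDBK is an established epithelial line from bovine kidney. Untreated cells formed the control, and treated cells received 5 mM butyrate in the medium for 24 h. Chromatin immunoprecipitation sequencing (ChIP-seq) was run with 4 antibodies in each condition, with 1 library for each of the 8 combinations and 1 shared input library. The treated and untreated libraries of an antibody carried the same antibody lot in the labels. Control libraries ran on lane 4 and butyrate libraries on lane 5, so lane and treatment cannot be told apart. With 1 library per group no difference between conditions has a replicate check, and all intervals are 95% intervals for counting error over peaks, which are not independent of one another.

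Acetyl groups on histone tails are placed by acetyltransferases and removed by histone deacetylases, a family of enzymes that butyrate inhibits. H3K27ac is placed mainly by p300 and CBP and marks active enhancers and promoters. H3K9ac is placed mainly by GCN5 and PCAF and is known best from active promoters, where Pol II gathers, while H3K9me3 belongs to repressed chromatin. In rumen biology butyrate is of interest as a product of microbial fermentation that also changes gene activity in epithelial cells. A site with H3K27ac alone that later carries both acetyl marks therefore speaks to the question of whether butyrate adds acetyl marks to elements that were already active.

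Among the control H3K27ac peaks, 62320 were still overlapped by an H3K27ac peak after butyrate (65.9%). These persistent sites fell into 4 classes by H3K9ac. The largest class had H3K9ac in both conditions, with 22520 sites. A further 14155 sites had H3K9ac in control and not after butyrate, 16791 had no H3K9ac in either condition, and 8854 were the gain sites. Gain sites were thus 14.2% of persistent sites (13.9 to 14.5). They were 34.5% of those persistent sites that had been without H3K9ac in control (33.9 to 35.1), and 15.4% when peaks under 500 bp were left out of all lists. In the other direction, 38.6% of the persistent sites with control H3K9ac were without it after butyrate (38.1 to 39.1). Where H3K27ac was not kept, 2592 of the 25922 sites that had lacked H3K9ac met it after butyrate.

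**Figure D1:**
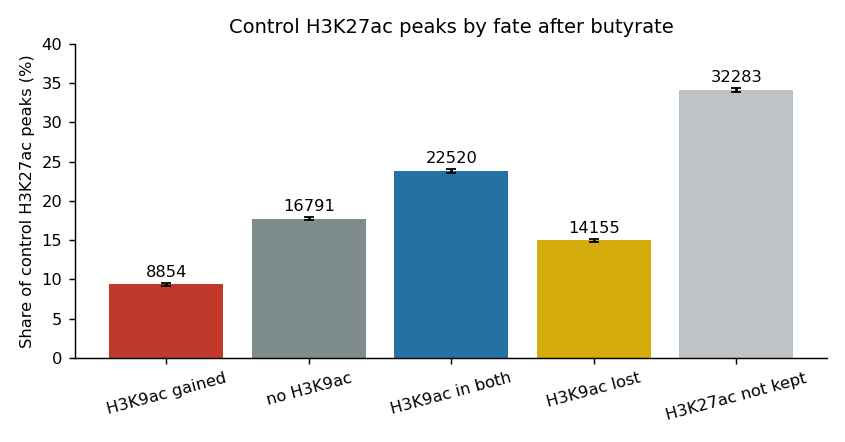
Share of the 94603 control H3K27ac peaks in each class, with the number of peaks above each bar and 95% Wilson intervals. The first 4 bars are persistent sites and the last bar holds the 32283 peaks not overlapped by H3K27ac after butyrate, and gain sites form the smallest class at 9.36%.

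The rule turns on single bases, so the sites at its edge are given here. The smallest overlap with butyrate H3K9ac was 1 bp, at 8 gain sites, and 107 gain sites shared under 10 bp. Just outside the rule, 101 persistent sites without H3K9ac lay within 10 bp of a butyrate H3K9ac peak. On the control side, 74 gain sites had a control H3K9ac peak within 10 bp, and 69 sites with H3K9ac in both conditions met the control mark over fewer than 10 bp. Sites at the edge were few beside the 8854. The median gain site shared 199 bp with butyrate H3K9ac, or 74.4% of its length (73.6 to 75.8), and 2262 gain sites (25.5%) were covered from end to end.

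Gain sites were short in control cells. Their median length was 262 bp (260 to 265), and the sites without H3K9ac had a median of 261 bp (259 to 263). Sites with H3K9ac in both conditions were longer, at 475 bp (469 to 480), and those that lost H3K9ac had a median of 389 bp (384 to 393). The shortest length in the lists, 199 bp, was found at 17.4% of gain sites and at 16.3% of sites without H3K9ac. Only 13 gain sites reached 1000 bp, against 75 sites without H3K9ac. In control, then, the sites that gained H3K9ac and those that stayed without it had closely similar median lengths. In 5 classes of control length the share that gained H3K9ac ran from 33.5% to 36.2%. The class of longest peaks was wide, from 381 to 1934 bp. At 500 bp or more the share was 29.6% (27.7 to 31.6), and at 1000 bp or more it was 14.8% (8.84 to 23.7), so long control peaks gained H3K9ac less often than the 34.5% seen over all lengths.

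After butyrate the H3K27ac peaks at gain sites were longer. The longest butyrate H3K27ac peak at a gain site had a median of 566.5 bp (558 to 575), and the median log2 ratio of butyrate to control length was 0.97 (0.94 to 1.00). At sites without H3K9ac the butyrate peak had a median of 384 bp (380 to 388), and the log2 ratio was 0.44 (0.42 to 0.46). The ratio was 0.47 (0.45 to 0.49) at sites with H3K9ac in both conditions and 0.13 (0.11 to 0.15) at sites that lost it. The H3K27ac peak was longer than in control at 84.7% of gain sites (84.0 to 85.5), at 70.0% of sites without H3K9ac (69.3 to 70.7) and at 55.4% of sites that lost H3K9ac (54.6 to 56.2). Of the 4 persistent classes, the class of gain sites therefore showed the largest relative lengthening of H3K27ac.

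Butyrate H3K27ac ran past 1 or both ends of most control peaks. Butyrate H3K27ac extended beyond both ends at 50.2% of gain sites (49.2 to 51.3) and at 5034 of 16791 sites without H3K9ac (29.3% to 30.7%). It extended beyond 1 end at 44.5% of gain sites and stayed within the control peak at 462 gain sites, or 5.22%. At 20.4% of gain sites (19.5 to 21.2) the butyrate H3K27ac peak also covered part of another control H3K27ac peak. At the other gain sites it reached no second control peak. Nearly all gain sites, 8468 of 8854, met a single butyrate H3K27ac peak.

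The share of sites that gained H3K9ac climbed with the length of the butyrate H3K27ac peak. Among persistent sites without control H3K9ac it was 20.7% (19.8 to 21.7) where the butyrate H3K27ac peak was shorter than 300 bp. It was 33.1% (31.4 to 34.7) for peaks of 400 bp to below 500 bp, and 48.4% (46.5 to 50.3) for peaks of 750 bp to below 1000 bp. It reached 54.4% (52.6 to 56.1) at 1000 bp or more. The overlap with H3K9ac was counted over the control peak, not over the butyrate peak. The order is a description, since both H3K27ac lists and the H3K9ac list belong to the rule.

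**Figure D2:**
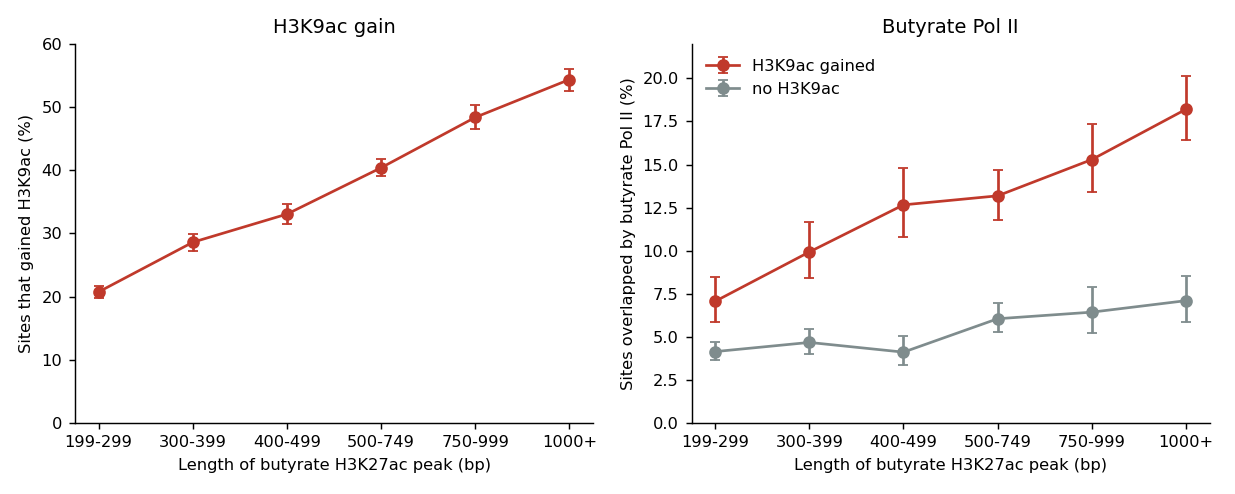
Persistent sites without control H3K9ac, grouped by the length of their longest butyrate H3K27ac peak in bp, with 95% Wilson intervals. The left panel shows the share that gained H3K9ac, from 20.7% to 54.4%, and the right panel the share overlapped by butyrate Pol II in gain sites and in sites without H3K9ac, with gain sites higher in all 6 groups.

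The H3K9ac peaks at these sites overlapped H3K27ac over most or part of their length. The gain sites were met by 8979 different butyrate H3K9ac peaks, 7.80% of that list, and 8538 sites met a single one. The longest H3K9ac peak at a gain site had a median of 318 bp (315 to 323), against 370 bp (366 to 373) where H3K9ac was present in both conditions and 271 bp over the whole butyrate H3K9ac list. Its centre lay a median of 100.5 bp (97 to 103) from the centre of the control H3K27ac peak. Of the 8979 H3K9ac peaks, 5063 (56.4%, 55.4 to 57.4) lay wholly within butyrate H3K27ac. Of all 11478 butyrate H3K9ac peaks that met a control H3K27ac peak and no control H3K9ac peak, 8075 were at gain sites (70.4%, 69.5 to 71.2). To count here, the control H3K27ac peak had only to persist and to meet no control H3K9ac itself. This share is thus largely set by the rule, and persistence alone held for 65.9% of all control H3K27ac peaks.

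Of the 8979 H3K9ac peaks, 904, or 10.1% (9.46 to 10.7), also overlapped a control H3K9ac peak beside the gain site. A single butyrate peak then met both the gain site and the neighbour. This applied to 916 gain sites, whose median distance to control H3K9ac was 95 bp. At the other 7938 gain sites every butyrate H3K9ac peak stood apart from control H3K9ac, and the median distance was 1626.5 bp. Most gains were thus separate peaks in the lists. The rule bars control H3K9ac from the site, so this is partly fixed by the choice of sites. Of the whole butyrate H3K9ac list, 77313 of 115104 peaks met no control H3K9ac.

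Control H3K9ac was nonetheless close to many gain sites. The nearest control H3K9ac peak lay a median of 1247 bp away (1177 to 1316), and 1408 bp away (1347 to 1466) from sites without H3K9ac. It lay within 1 kb of 45.6% of gain sites (44.6 to 46.6) and of 43.7% of sites without H3K9ac (42.9 to 44.4). The share that gained H3K9ac was 38.5% (37.2 to 39.9) where control H3K9ac was under 250 bp away and 26.5% (23.8 to 29.4) where it was at least 50000 bp away, and 250 gain sites were of this remote kind. Between 250 bp and 10000 bp the share stayed between 33.0% and 36.7%. The shares thus varied less over distance to control H3K9ac than over the length of butyrate H3K27ac.

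The neighbouring H3K9ac peaks themselves differed in what became of them. Of the control H3K9ac peaks that were nearest to a gain site and within 1 kb of it, 67.0% (65.5 to 68.5) were overlapped by H3K9ac after butyrate. Beside sites without H3K9ac this share was 46.5% (45.3 to 47.6), and among all control H3K9ac peaks it was 48.6% (48.3 to 49.0). The 904 H3K9ac peaks that joined a gain site to its neighbour are butyrate peaks. A control H3K9ac peak met by such a joining peak counts as kept where it was the nearest and within 1 kb. The rule allows no such joining peak at sites without H3K9ac, so a part of this contrast is fixed by the choice of sites. The share without the joining peaks was not computed.

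The lists of both acetyl marks grew after butyrate, from 94603 to 187465 peaks for H3K27ac and from 74114 to 115104 for H3K9ac. The H3K9me3 list grew from 25623 to 89478 peaks, while the Pol II list shrank from 56225 to 31225. The classes are therefore compared within a condition. At 1 kb from the centre, 11.9% of positions beside gain sites lay in a control H3K27ac peak, against 17.6% beside sites without H3K9ac. After butyrate these shares were 32.6% and 28.2%, so the order of the classes turned. For H3K9ac at the same distance, the share beside gain sites was 9.83% in control and 13.2% after butyrate, while beside sites without H3K9ac it was 1.20 percentage points higher in control, and 8.82% after butyrate. At 1 kb, gain sites thus had the lower share of both acetyl marks beside them in control and the higher share after butyrate. For control H3K9ac this order depended on the distance. At 500 bp the share was 11.5% beside gain sites and 10.8% beside sites without H3K9ac.

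**Figure D3:**
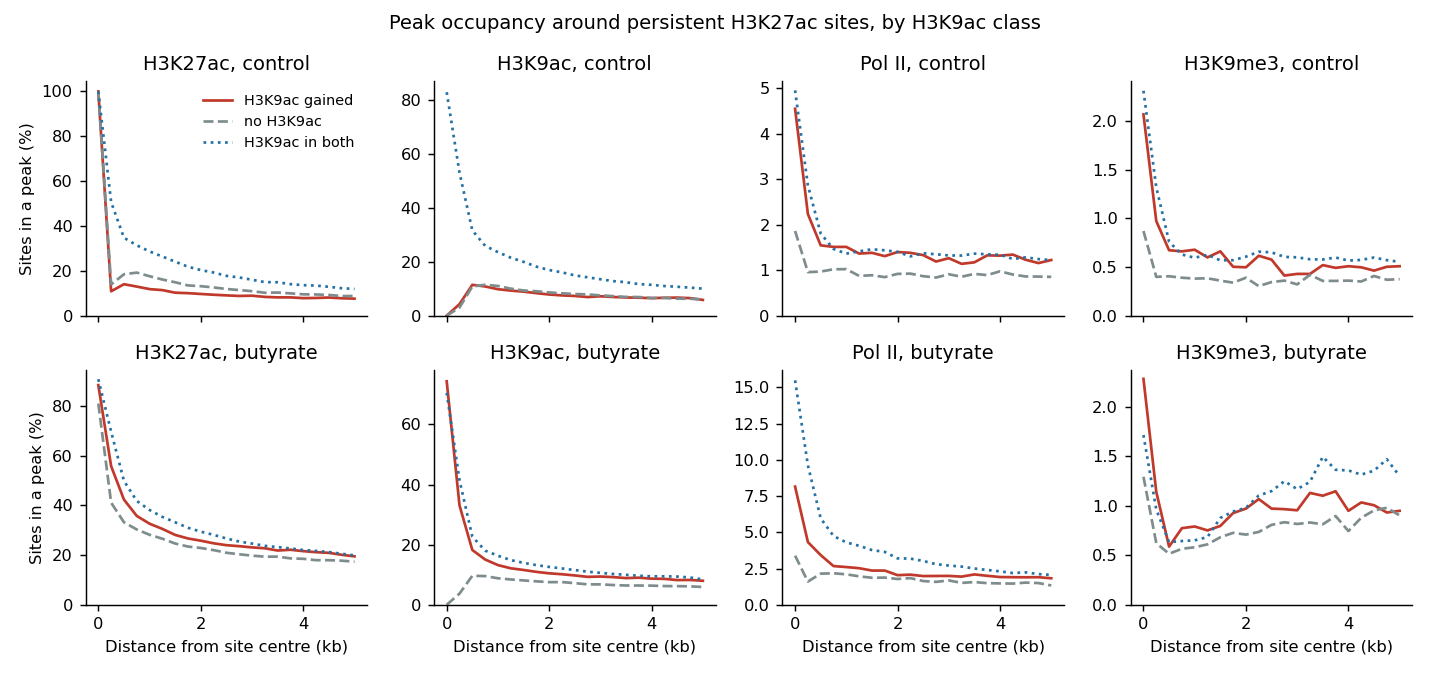
Share of sites that lie in a peak of each list, against distance from the centre of the control H3K27ac peak in kb, with both sides averaged because the sites have no strand. Solid lines are gain sites, dashed lines sites without H3K9ac and dotted lines sites with H3K9ac in both conditions, and in the butyrate H3K9ac panel the solid line starts at 74.3% and stays above the dashed line out to 5 kb.

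Pol II offered the first readout that the rule did not use. Butyrate Pol II peaks overlapped 1142 of the 8854 gain sites, or 12.9% (12.2 to 13.6). Over all control H3K27ac peaks the share was 12.8%, so the gain sites stood at the level of the whole list and not above it. The sites without H3K9ac stood at 5.02% (4.70 to 5.36), which was 7.88 percentage points lower than the gain sites (7.12 to 8.66). With peaks under 500 bp left out of all lists the difference was 0.96 points (0.07 to 2.29). The difference at all lengths had the same direction on all 30 chromosomes. Sites with H3K9ac in both conditions had the highest share, 29.2% (28.6 to 29.8), and sites that lost H3K9ac had 13.7% (13.2 to 14.3), an interval that overlaps that of the gain sites. Among persistent sites, H3K9ac in either condition therefore went with more butyrate Pol II peaks than its absence in both, and gain sites ranked with the sites that had lost the mark. Median control length was 262 bp at gain sites, 389 bp at sites that lost H3K9ac and 475 bp at sites with it in both conditions. The shares of these 3 classes were not compared at matched length.

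In control cells, before any H3K9ac peak was called there, Pol II already overlapped 638 gain sites, or 7.21% (6.69 to 7.76), with 5.62% over all control H3K27ac peaks. At sites without H3K9ac the share was 3.07% (2.82 to 3.35), lower by 4.13 percentage points (3.55 to 4.74). This difference was 0.35 points without peaks under 500 bp, and 2.49 points when at least 50% of the control peak had to be covered. At sites that went on to lose H3K9ac, which carried the mark in control, it was 3.31% (3.02 to 3.61). Control Pol II was thus more frequent at the gain sites than at either of these classes, on 29 of 30 chromosomes for the class without H3K9ac. It was most frequent at sites with H3K9ac in both conditions, with 10.5% (10.1 to 10.9).

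Split by condition, Pol II peaks were found in both at 128 gain sites (1.45%), in control alone at 510 (5.76%), in butyrate alone at 1014 (11.5%) and in neither at 7202 (81.3%). The Pol II list itself held 56225 peaks in control and 31225 after butyrate. Over all control H3K27ac peaks, 1.42% had Pol II in both and 11.4% in butyrate alone, so for these the gain sites stood at the level of the list. Pol II in control alone was found at 4.2% of the list, and in neither condition at 83%. Pol II in butyrate alone was less frequent at sites without H3K9ac than at gain sites, with 4.66% (4.35 to 4.99). It was more frequent than at gain sites where H3K9ac was lost, with 13.1% (12.6 to 13.7). Where H3K9ac was present in both conditions, it was found at 5624 of 22520 sites (24.4% to 25.5%). Pol II in butyrate alone was thus not tied to the gain of H3K9ac. Among the gain sites with control Pol II, 20.1% (17.1 to 23.3) also had it after butyrate. Among those without control Pol II, 12.3% (11.6 to 13.1) had it after butyrate. Over all control H3K27ac peaks, 1343 of the 5315 with control Pol II had it in both conditions. The share without control Pol II was not computed for the whole list.

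The difference in Pol II was as large at matched control length. When the shares were averaged over the 5 classes of control length with the make-up of the gain sites, the difference between gain sites and sites without H3K9ac was 7.88 percentage points for butyrate Pol II and 4.12 for control Pol II. The sites were also grouped by ranges of butyrate H3K27ac length. Where that peak was shorter than 300 bp, butyrate Pol II met 7.06% of gain sites (5.86 to 8.48) and 4.13% of sites without H3K9ac (3.65 to 4.69). Where it was 1000 bp or longer, the shares were 18.2% (16.4 to 20.1) and 7.09% (5.87 to 8.54). Lengths were not matched within a range, and the last range had no upper bound. By distance to control H3K9ac, butyrate Pol II met 13.8% of gain sites (12.8 to 14.9) under 1 kb. It met 12.2% (11.1 to 13.3) from 1000 bp to below 10000 bp and 11.5% (9.82 to 13.5) from there to below 50000 bp. At 50000 bp or more it met 36 of 250 gain sites, or 14.4% (10.6 to 19.3).

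**Figure D4:**
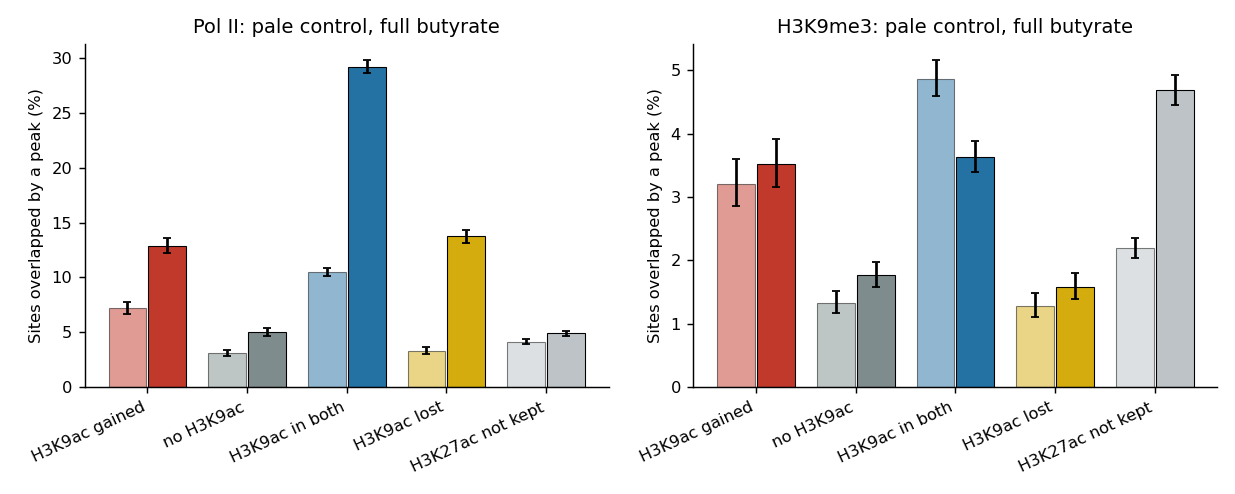
Share of sites overlapped by a Pol II peak (left) and by an H3K9me3 peak (right) in each class of control H3K27ac peaks, with 95% Wilson intervals. Pale bars are control and full bars butyrate, bars of 1 colour share a class, and gain sites lie above the sites without H3K9ac in all 4 lists.

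H3K9me3, a mark of repressed chromatin, was uncommon at gain sites but moved in the same direction as Pol II. Control H3K9me3 peaks overlapped 284 gain sites, or 3.21% (2.86 to 3.60), with 2.63% over all control H3K27ac peaks and 1.33% (1.17 to 1.51) at sites without H3K9ac. Butyrate H3K9me3 peaks overlapped 311 gain sites, or 3.51% (3.15 to 3.92), with 3.34% over all peaks and 1.76% (1.57 to 1.97) at sites without H3K9ac. The gain sites were higher on 27 and 25 of 30 chromosomes. The differences were 1.88 and 1.75 percentage points, and 0.92 each when at least 50% of the control peak had to be covered. With peaks under 500 bp left out they were 0.26 and -0.12, so the direction turned for butyrate H3K9me3. At the 1 bp overlap, a mark of repressed chromatin was thus also called more often at gain sites than at sites without H3K9ac. Sites with H3K9ac in both conditions had 4.87% in control and 3.63% after butyrate, and sites that lost H3K9ac had 1.29% and 1.58%. Peaks where H3K27ac was not kept had 2.19% and 4.68%. The part of H3K9me3 in the Pol II difference was not tested beyond the values that follow. Among the 553 gain sites that met H3K9me3, 20.4% (17.3 to 24.0) also met butyrate Pol II, and among the 8301 others 12.4% (11.7 to 13.1). Over all control H3K27ac peaks the share with butyrate Pol II was 12.8%, and its split by H3K9me3 was not computed. Without H3K9me3, it was 28.2% at sites with H3K9ac in both conditions, 13.7% at sites that lost it and 4.85% at sites without it. With all sites that met H3K9me3 removed, the difference in butyrate Pol II between gain sites and sites without H3K9ac was 7.54 percentage points (6.77 to 8.34).

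On chromosomes 5 and 14 these calls were more frequent at gain sites and, for most lists, also at sites without H3K9ac. On chromosome 14, control Pol II met 18.9% of 312 gain sites and control H3K9me3 met 39 of them (9.28% to 16.6%). On chromosome 5 these shares were 14.9% (12.3 to 17.9) and 8.24% (6.34 to 10.6) of 631 gain sites. On the other chromosomes they were 6.13% (5.62 to 6.68) and 2.44% (2.12 to 2.80). At sites without H3K9ac, control Pol II met 5.60% on chromosome 5, 3.67% on chromosome 14 and 2.89% elsewhere, and control H3K9me3 met 2.80% on chromosome 5, 1.5% on chromosome 14 and 1.23% elsewhere. Without chromosomes 5 and 14 the H3K9me3 differences were 1.21 points in control and 1.15 after butyrate. The difference in butyrate Pol II was less tied to these chromosomes, since 12.2% of gain sites and 4.94% of sites without H3K9ac met it elsewhere. No Pol II or H3K9me3 peak of either condition was found at 6817 gain sites, or 77.0% (76.1 to 77.9), at 79.4% of all control H3K27ac peaks and at 15107 of the 16791 sites without H3K9ac.

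Gain sites were spread over the genome. They occurred on all 30 nuclear chromosomes, with 585 on chromosome 1 and 631 on chromosome 5. Among persistent sites without control H3K9ac, the share that gained it had a median of 34.6% over the 29 autosomes, from 27.5% (24.9 to 30.4) on chromosome 19 to 39.6% (37.2 to 42.0) on chromosome 5. Chromosome 25 was close to the lower end with 27.6% (23.8 to 31.8), and chromosome 15 close to the upper end with 39.5% (36.5 to 42.5).

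The X chromosome lay outside this range. Its 39 gain sites were 10.2% (7.52 to 13.6) of 384 persistent sites without control H3K9ac, against 34.9% (34.3 to 35.5) on the autosomes. H3K27ac itself persisted at 47.0% (44.6 to 49.5) of control peaks on X and at 66.2% (65.9 to 66.5) on the autosomes. Loss of H3K9ac went the other way, with 76.4% (71.7 to 80.5) of persistent sites with control H3K9ac on X and 38.2% (37.7 to 38.7) on the autosomes. Of the whole H3K9ac list, 1.15% of control peaks and 0.522% of butyrate peaks lay on X, so the low number of gain sites came with a shorter list of butyrate H3K9ac peaks on that chromosome.

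**Figure D5:**
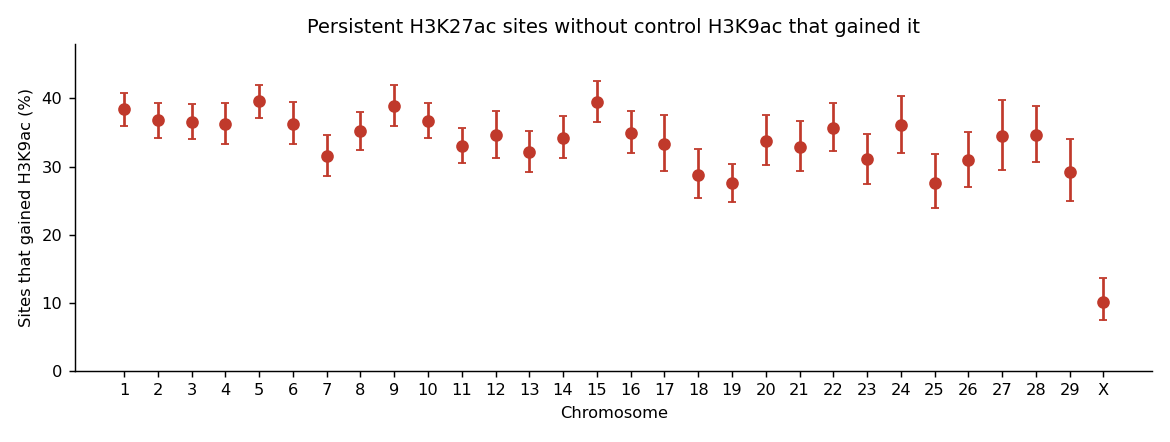
Share of persistent H3K27ac sites without control H3K9ac that gained H3K9ac on each chromosome, with 95% Wilson intervals. The 29 autosomes lie between 27.5% and 39.6%, and the X chromosome at 10.2%.

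Locally, gain sites belonged to groups of H3K27ac peaks more often than they stood alone. When control H3K27ac peaks less than 12500 bp apart were taken as 1 run, a gain site lay in a run of 7 peaks at the median, the same as a site without H3K9ac. Runs of 5 or more peaks held 65.1% of gain sites and 66.4% of sites without H3K9ac, while 76.5% of sites with H3K9ac in both conditions lay in such runs. With gain sites alone joined at this distance, 4910 of them (55.5%) had no other gain site nearby, and the rest formed 1092 pairs, 323 runs of 3 and 172 longer runs. The longest runs held 9 gain sites. One lay on chromosome 1 from 21606120 to 21658697, where 16 control H3K27ac peaks included 10 persistent sites without control H3K9ac, and 9 of these 10 gained it. The other lay on chromosome 16 from 70589259 to 70636883, with 20 control H3K27ac peaks and 11 persistent sites without control H3K9ac. Both runs were picked for their gain sites and begin and end at gain sites, so the share that gained is raised by that choice.

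On the scale of 1 Mb, 1800 of the 2432 windows with control H3K27ac held a gain site, with a median of 4 per window. The most, 37, were found at 96000001 to 97000000 of chromosome 1, where 61.7% of 60 persistent sites without control H3K9ac gained the mark. The next was 40000001 to 41000000 of chromosome 8, with 36 of 86 sites (41.9%), and then 79000001 to 80000000 of chromosome 1, with 29 of 73 sites (39.7%). The first of these windows thus stood out by the share that gained, and the other 2 mainly by how many sites they held. The windows were picked for their number of gain sites, so a high share is partly a result of that choice.

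Positions of single sites refer to the bovine assembly UMD3.1.1, to which the reads had been aligned, with the first base of a chromosome as 1. Without a genome and gene models of this build, neither sequences nor genes and exons at the sites are given, and the identity of the cells was not checked against marker genes. The longest gain site lay on chromosome 3 from 49923831 to 49925764 (1934 bp). Its H3K9ac peak was at the 199 bp minimum, and butyrate H3K27ac met it in separate peaks from 49924278 to 49925700, the longest of 411 bp. It also met butyrate Pol II, over 240 bp, and no control Pol II. The next 2 by length, on chromosome 23 from 17520352 to 17521922 and on chromosome 15 from 76213608 to 76215084, had control H3K27ac of 1571 and 1477 bp and butyrate H3K27ac of 692 and 341 bp. These 3 sites were named for their length in control, so their longer control peaks are part of that choice.

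The gain site with the most bases under butyrate H3K9ac lay on chromosome 8 from 61760450 to 61761344. An H3K9ac peak of 839 bp lay wholly within this site of 895 bp, and the butyrate H3K27ac peak around both had 1908 bp. Control Pol II had met 382 bp of it, and no butyrate Pol II peak was found there. The second, on chromosome 9 from 84941942 to 84942946, had 813 bp under 2 H3K9ac peaks and met Pol II in both conditions, over 108 bp in control and 358 bp after butyrate. It also met control H3K9me3, over 134 bp.

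H3K27ac spread farthest around a gain site on chromosome 5 from 19955672 to 19955998. This site of 327 bp lay in a butyrate H3K27ac peak of 5335 bp, from 19953094 to 19958428. Its butyrate H3K9ac peak of 1807 bp covered 312 bp of it. Control H3K9ac lay 78 bp away, and no Pol II or H3K9me3 peak of either condition met the site.

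After the site on chromosome 3, the longest gain sites with Pol II in butyrate alone were on chromosome 24 from 43806462 to 43807788 and on chromosome 12 from 2321940 to 2322983. Pol II met 238 and 211 bp of them, and butyrate H3K9ac met 238 and 312 bp. The longest gain site that met butyrate H3K9me3 was on chromosome 10 from 29821365 to 29822227, where 241 bp of its 863 bp were covered. At these sites the marks covered a part of the site and not its whole length.

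The rows of the lists were not in genomic order, and peaks were longest in the first rows. In the control H3K27ac list the first twentieth of the rows had a median length of 889 bp and the last 236 bp. What orders the rows is not stated in the sources used here, so row position is given as a description of the lists. The median gain site stood 65.7% of the way down the control H3K27ac list (65.0 to 66.3), behind sites without H3K9ac at 54.7% (54.3 to 55.2) and sites with H3K9ac in both conditions at 31.7% (31.4 to 32.1). In the butyrate H3K27ac list the order of the first 2 classes turned, with the peak of the median gain site 29.7% of the way down (29.1 to 30.3) and that of the sites without H3K9ac 38.5% (38.1 to 39.1). The H3K9ac peak of the median gain site stood 48.2% of the way down its own list (47.0 to 49.3), so gains were not gathered in its last rows.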

How the data were processed

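The submitters' processing notes name Trim Galore 0.4.1, BWA and MACS2 for these libraries of 75 nt reads. In the methods, the authors mapped the reads to UMD3.1.1 with BWA, kept uniquely placed reads, and called peaks with MACS2 against the input, and there is 1 list per library. Each of the 8 deposited lists holds positions alone (chromosome, first and last coordinate in bp), without heights or scores. Read depth is not in the lists and was not used here, so it limits every absence of a peak. A peak missing from a list can be one that fell below the threshold of the caller. Starts were read as counted from 0 and printed with 1 added. End minus start was never below 199, so starts may be counted from 1, which would add 1 bp to each length.

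Overlap was 1 bp or more. Shares have Wilson intervals, differences of shares Newcombe intervals and medians exact binomial intervals, all at 95%. No test between conditions was possible with 1 library per group. Peaks on the mitochondrial genome were left out. A gene table of another build (ARS-UCD2.0) was not used, since peaks lay over 1 Mb past its last gene on 10 chromosomes. Regions were named by a rule: the longest gain sites, those with most butyrate H3K9ac, the widest butyrate H3K27ac, the longest with butyrate Pol II alone or with butyrate H3K9me3, and the densest windows and runs. The input library was not analysed here. The sites, classes and rules were chosen with earlier results of these data known. The procedure was tested on simulated data. Calculations ran in Python 3.11.15 with scipy 1.17.1 and numpy 2.4.6, and figures were drawn with matplotlib 3.10.9.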

Additional observations from a re-analysis of the deposited data

How the results depend on the processing

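No paired analysis was possible because no group had a second library. Of 65 alternative values, 32 stayed inside the 95% interval of the value reported, 32 left it and 1 changed sign. Differences below are in percentage points, gain sites minus persistent sites without H3K9ac, for control Pol II, butyrate Pol II, control H3K9me3 and butyrate H3K9me3. With peaks of at least 500 bp in all lists, which left 569 and 1174 nuclear Pol II peaks and 222 and 3437 H3K9me3 peaks, the differences were 0.35, 0.96, 0.26 and -0.12, the last being the change of sign. Gain sites were then 3.90% of control H3K27ac peaks and 15.4% of persistent peaks without control H3K9ac, with a median length of 651 bp. With at least 50% of the control peak covered, the differences were 2.49, 5.29, 0.92 and 0.92, the shares 8.22% and 28.7% and the length 270 bp. This threshold also held for control H3K9ac, so sites with the control mark over less than 50% of their length counted as without it. Leaving out sites with control H3K9ac within 1 kb gave 5.09%, 33.7%, 253 bp and 7.11 points for butyrate Pol II. Joining peaks under 1 kb apart gave 10.5%, 40.3%, 286 bp and 4.84 points for control Pol II. Keeping the longest butyrate H3K9ac peaks, as many as in control, gave 7.12% and 26.3%. Without chromosomes 5 and 14 the differences were 3.24 for control Pol II, 1.21 for control H3K9me3 and 1.15 for butyrate H3K9me3. Autosomes alone, and the length make-up of the gain sites, moved no value out of its interval. Both of the following alternatives were chosen after seeing the data. The first 50% of the rows of every list gave 6.08%, 22.5%, 381 bp, 9.02 points (butyrate Pol II) and 0.92 points (butyrate H3K9me3). Leaving out peaks that met H3K9me3 gave 33.7% of persistent peaks without control H3K9ac. Apart from the loss of short peaks under the 500 bp minimum, the cause of these shifts was not tested.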
